A study of Mus musculus with 2 samples.

Results

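Transcription factor genes that act in blood stem cells and in the red cell lineage were followed across the cell classes of mouse bone marrow. The 10 genes were Hlf, Mecom, Meis1, Hoxa9, Erg, Gata2, Tal1, Lmo2, Gata1 and Klf1. They were taken by symbol from the gene list of the expression matrices, and all 10 were present among 32286 features. Bone marrow cells of 2 genotypes were captured in droplets and the 3′ ends of their RNA sequenced, with 1 library each. The control library came from Mx1Cre+/-;Rosa26+/+ mice and the MYC library from Mx1Cre+/-;Rosa26LSL-MYC/LSL-MYC mice, in which Cre removes a stop cassette in front of MYC. Both genotypes carried the Cre transgene, whose Mx1 promoter is driven by interferon and is active in many cell types besides stem cells. The labels give neither an inducing agent, nor an age, nor the number of mice behind a library. With 1 library for each genotype there was no replicate, so no test between genotypes was possible, and every interval given here is a 95% interval that covers the counting of molecules only.

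In adult marrow, blood stem cells are kept in a multipotent state by a set of factors that includes HLF, the MECOM zinc-finger proteins, the homeodomain partners MEIS1 and HOXA9, and the ETS factor ERG. GATA2, the basic helix-loop-helix factor TAL1 and the adaptor LMO2, which bridges TAL1 to GATA factors on DNA, work in stem cells and in several of the lineages that leave them. As red cell precursors form, GATA1 takes the place of GATA2 at shared sites, and KLF1 joins GATA1 and the TAL1 complex in switching on genes for globins, heme synthesis and the red cell membrane.

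The sequences before the transcription starts of Tal1, Gata1, Klf1 and Gata2 are shown because the first 3 of these genes were lower, and Gata2 higher, in the MYC library's earlier red cell precursors. They come from RefSeq on GRCm38.p6, are written 5′ to 3′ on the strand of the gene, and end where the window of 250 bases before the start ends or where an annotated exon begins. Capitals mark GATAA, the core letters bound by GATA factors, and CACCC, those bound by KLF1, on either strand, so that TTATC and GGGTG are the same motifs read on the opposite strand. The Tal1 window is chr4:115056176-115056425 on the plus strand, the Gata1 window chrX:7967911-7968160 on the minus strand, the Klf1 window chr8:84901732-84901927 on the plus strand, and the Gata2 window chr6:88193641-88193890 on the plus strand.
Tal1: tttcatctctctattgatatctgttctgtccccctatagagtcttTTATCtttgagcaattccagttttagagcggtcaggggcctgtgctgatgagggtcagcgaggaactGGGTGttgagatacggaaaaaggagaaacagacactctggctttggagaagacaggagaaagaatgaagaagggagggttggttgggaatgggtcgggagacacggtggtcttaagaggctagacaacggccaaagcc
Gata1: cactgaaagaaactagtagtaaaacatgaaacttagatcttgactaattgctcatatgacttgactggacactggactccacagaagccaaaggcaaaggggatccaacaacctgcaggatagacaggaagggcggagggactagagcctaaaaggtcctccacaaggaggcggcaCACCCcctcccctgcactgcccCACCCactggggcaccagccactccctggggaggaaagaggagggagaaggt
Klf1: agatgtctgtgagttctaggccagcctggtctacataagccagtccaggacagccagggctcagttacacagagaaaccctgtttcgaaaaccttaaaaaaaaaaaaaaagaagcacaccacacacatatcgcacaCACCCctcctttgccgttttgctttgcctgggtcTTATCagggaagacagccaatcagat
Gata2: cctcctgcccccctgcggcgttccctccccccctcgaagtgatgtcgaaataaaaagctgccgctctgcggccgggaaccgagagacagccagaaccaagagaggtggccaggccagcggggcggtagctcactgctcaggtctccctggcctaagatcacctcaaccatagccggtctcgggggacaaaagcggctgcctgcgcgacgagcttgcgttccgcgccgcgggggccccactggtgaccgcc
The Tal1 and Klf1 windows each held 1 GATAA and 1 CACCC, the Gata1 window held 2 CACCC and no GATAA, and the Gata2 window held neither. RefSeq gives a second promoter for Gata2, which held 1 CACCC, and for Tal1, which held neither motif. In Klf1 the GATAA match lay 80 bases and the CACCC match 114 bases before the RefSeq start. Over the 250 bases before the start, GATAA was found in 22.6% of 32851 RefSeq promoters and CACCC in 52.0%. Of the 14 promoters of the 9 member genes with an entry, 6 held GATAA (in Mecom, Tal1, Hoxa9, Klf1 and Erg) and 9 held CACCC. The E-box CANNTG bound by TAL1 was in 7 of the 14 and in 66.2% of all promoters, GGAAG, bound by ETS factors such as ERG, in 9 of 14 and 64.1%, and TGACAG, bound by MEIS1, in 2 of 14 and 15.9%. Each match is only a match of letters in these windows, and Lmo2 was not searched.

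The genes lie on GRCm38 (GENCODE vM21) at these places, all protein-coding. Hlf spans chr11:90336536-90390895, Mecom chr3:29951296-30548008, Meis1 chr11:18879817-19018985, Hoxa9 chr6:52223100-52231089 and Erg chr16:95359169-95586593, all on the minus strand. Gata2 spans chr6:88193891-88207032, Tal1 chr4:115056426-115071755, Lmo2 chr2:103957986-103981878 and Klf1 chr8:84901928-84905291 on the plus strand, and Gata1 chrX:7959260-7978071 on the minus strand. Mecom, Meis1 and Lmo2 each overlap a counted gene on the opposite strand. Over all kept cells of both libraries these neighbours held 3 unique molecular identifiers (UMIs, the tags that count RNA molecules) for Mecomos, 59 for Gm16140 and 91 for Gm16141 at Meis1, and 92 for 4931422A03Rik at Lmo2. Whether the counting used strand is not given in the sources used here, and without strand the reads of such a pair cannot be told apart.

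After removal of low-quality barcodes and called doublets, 14760 control cells with 119905786 UMIs and 12645 MYC cells with 102740700 UMIs remained, with medians of 5321.5 and 6014 UMIs a cell. The 2 libraries shared 97 barcode sequences, 77 of them among kept cells. The feature named MYC, separate from mouse Myc, had 295 UMIs in the MYC library and 0 in the control, where a count of 0 allows up to 0.0250 CPM (UMIs of the gene per 1000000 UMIs of the cells summed). In the cells called stem or multipotent progenitors it had 7 UMIs in the MYC library, and in erythroid cells 9. Cell classes were rebuilt by joint clustering without the 10 genes and without the partner and red cell target lists used below, and named from marker genes. The stem or multipotent progenitor class was 1 cluster with 229 control and 222 MYC cells, in which 9 of 10 stem markers in the control and 10 of 10 in the MYC library were higher than in all other cells, as were all 7 markers of multipotent progenitors in both. The erythroid class, made of 3 clusters, held 1348 control cells (9.13% of kept cells) and 435 MYC cells (3.44%), with all 8 erythroid progenitor and all 10 erythroblast markers higher than in other cells. The same markers gave the classes their names, so these counts describe the classes and do not test the names. Levels are compared here for the same gene between classes or libraries, because a 3′ count is not scaled to gene length. The share of Gata1 among Gata1 and Gata2 UMIs, given below, is compared only between libraries and classes. Levels between classes are a description, since the classes come from the same cells.

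Of the stem-side genes, Hlf, Mecom, Meis1 and Hoxa9 were at their highest level in the stem or multipotent progenitors, and Erg was as high in neutrophil precursors. Mecom, which encodes the EVI1 zinc-finger proteins, had 274 of its 333 control UMIs (82.3%) and 191 of its 226 MYC UMIs (84.5%) in the stem class. Hlf, which encodes a PAR-domain leucine zipper factor of long-lived stem cells, had 48.9% and 45.9% of its UMIs there. The rest of Hlf lay mostly in immature neutrophils, with 29.3% and 31.1%, at 10.7 CPM in control cells and 7.09 CPM in MYC cells, against 91.7 and 59.9 CPM in the stem class. Monocytes held Hlf at 0.755 and 0.871 CPM, so the level in immature neutrophils stood above that of another abundant class in both libraries. Meis1, which encodes a homeodomain cofactor, was at 141 and 76.7 CPM in the stem class. It was next highest in megakaryocytes, at 75.4 and 30.4 CPM from only 28 and 9 UMIs, or 40.2 and 25.9 CPM without the richest cells. Plasmacytoid dendritic cells (22.4 and 21.2 CPM) and basophils or mast cells (20.5 and 23.8 CPM) followed, with intervals that overlapped. Hoxa9, the posterior homeobox partner of Meis1, was highest in the stem class at 42.0 and 30.04 CPM and next highest in plasmacytoid dendritic cells at 13.1 and 27.8 CPM, where the MYC interval of 16.2 to 44.5 CPM overlapped that of the stem class (25.2 to 35.5 CPM). Erg, an ETS factor required by stem cells, had only 11.1% and 10.7% of its UMIs in the stem class and 58.6% and 55.8% in immature neutrophils, where its level of 62.6 CPM in the control lay within the interval of the stem class (54.4 to 67.8 CPM).

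The shared factors Gata2, Tal1 and Lmo2 each had a different distribution. Gata2 was highest in basophils or mast cells, at 1778 CPM in control cells and 1002 CPM in MYC cells, and these cells, 1.26% and 1.16% of all kept cells, held 66.8% and 63.6% of its UMIs. Tal1 was at 347 and 205 CPM in erythroid cells and 334 and 111 CPM in megakaryocytes, and the control intervals of these 2 classes overlapped (340 to 355 and 278 to 398 CPM). In the stem class Tal1 was lower, at 72.9 and 47.1 CPM. Lmo2 was spread widely: it was at 349 and 349 CPM in the stem class, 325 and 271 CPM in erythroid cells, 157 and 133 CPM in granulocyte progenitors and 119 and 107 CPM in monocytes. In the control its lowest levels were close to each other, in B progenitors (18.7 CPM), T or NK cells (19.1 CPM) and plasma cells (20.3 CPM). In the MYC library it was lowest in T or NK cells (10.7 CPM), from only 9 UMIs.

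Klf1 was highest in erythroid cells, and Gata1 in megakaryocytes and erythroid cells. Klf1 had 89.4% of its control UMIs and 81.0% of its MYC UMIs in erythroid cells, at 368 and 246 CPM, and no other named class with at least 20 cells exceeded 12.3 CPM in the control or 10.1 CPM in the MYC library. Gata1 had 81.0% and 63.8% of its UMIs in erythroid cells, at 115 and 85.9 CPM. In megakaryocytes it was higher than in erythroid cells in the control, at 178 CPM from 66 UMIs (135 CPM without the richest cell), and at 67.5 CPM from 20 UMIs in the MYC library. It was also found in basophils or mast cells at 31.7 and 34.7 CPM, and in the stem class at 22.0 and 14.9 CPM. A low level of the erythroid genes was found in classes that should lack them, and it differed between libraries: in mature neutrophils Klf1 was at 7.99 and 3.68 CPM, Tal1 at 12.8 and 4.84 CPM and Gata1 at 3.67 and 1.93 CPM. The share of erythroid cells was 9.13% and 3.44%. In monocytes Klf1 was at 4.30 and 1.31 CPM and Gata1 at 1.74 and 0.871 CPM, with intervals of the ratios below 0, and Tal1 at 6.27 and 5.66 CPM, with an interval that included 0. In T or NK cells Klf1 was at 6.98 and 7.16 CPM and Tal1 at 4.77 and 11.9 CPM, from at most 19 UMIs a gene and library and with intervals that included 0. Whether free RNA from erythroid cells gave these levels was not tested.

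**Figure D1:**
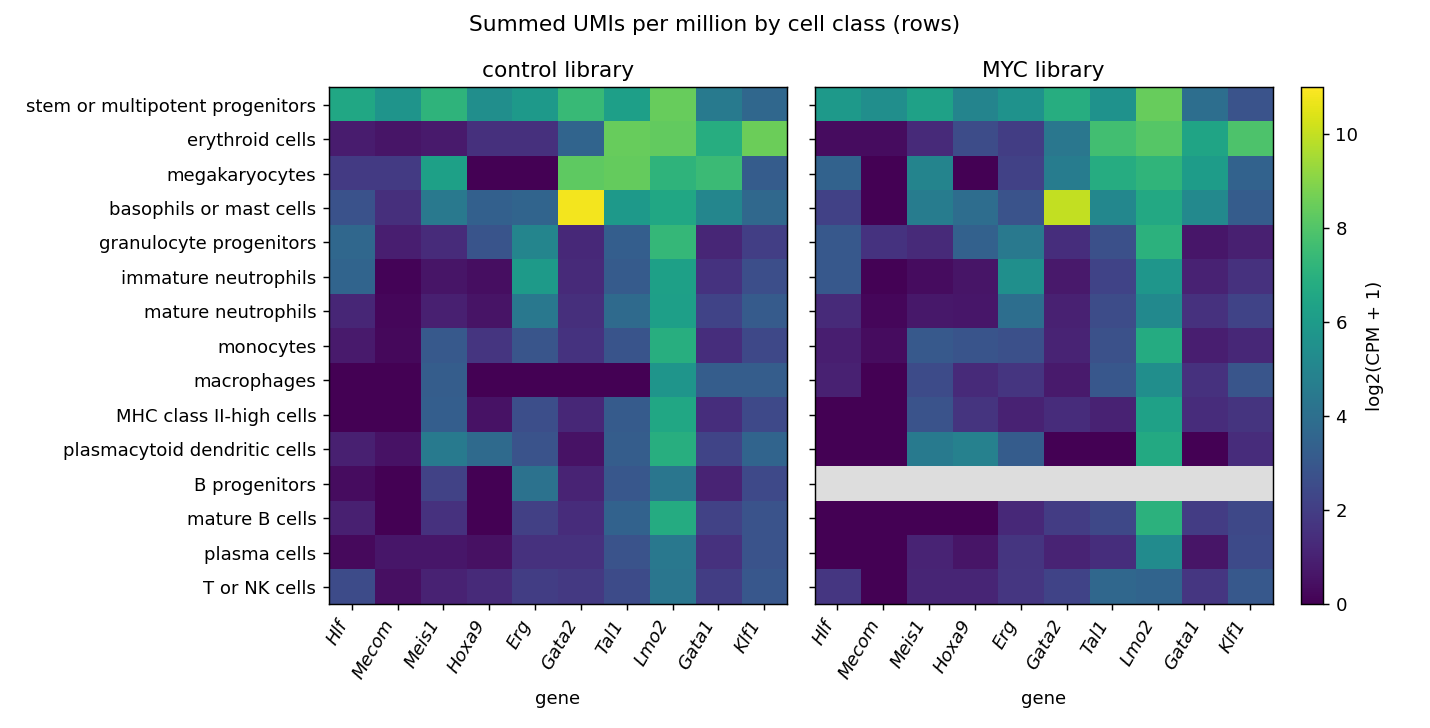
Level of the 10 genes (columns) in each named cell class (rows) in the control and MYC libraries, as log2(CPM + 1) of summed UMIs on a shared colour scale; grey marks a class with under 20 cells. Gata2 is brightest in basophils or mast cells (1778 and 1002 CPM), Klf1 in erythroid cells (368 and 246 CPM), and the 4 genes Hlf, Mecom, Meis1 and Hoxa9 in the top row.

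In stem or multipotent progenitors, 9 of the 10 genes were lower in the MYC library with a counting interval of the log2 ratio wholly below 0, and Lmo2 was level. Of the 9682 genes compared in the class, 28.3% had an interval wholly below 0 and 15.8% one wholly above 0, and these are intervals around single libraries, not tests. Meis1 had 765 UMIs in 229 control cells and 350 in 222 MYC cells, 141 against 76.7 CPM, a log2 ratio of -0.88 (interval -1.07 to -0.70). Hlf went from 91.7 to 59.9 CPM, a log2 ratio of -0.62 (-0.83 to -0.40). Both intervals lay wholly below 0, and with equal weight for each cell the Meis1 ratio was -0.60. Tal1 was at 72.9 and 47.1 CPM (log2 ratio -0.63, -0.87 to -0.38), and Gata2 at 170 and 115 CPM (-0.56, -0.72 to -0.40), the latter -0.27 with equal weight for each cell. Gata1 had 119 and 68 UMIs, or 22.0 and 14.9 CPM (-0.56, -1.01 to -0.12). Hoxa9, at 42.0 and 30.04 CPM, had a log2 ratio of -0.48, Erg, at 60.8 and 47.1 CPM, one of -0.37, and Mecom, at 50.7 and 41.9 CPM, one of -0.27 with an interval that just missed 0 (-0.55 to -0.0029). Lmo2, the adaptor of the TAL1 complex, had 1888 and 1590 UMIs, or 349 CPM in each library, with a log2 ratio of -0.0020 (-0.10 to 0.10), and it was 0.14 under a median-of-ratios scaling. Klf1 was at 11.6 and 6.14 CPM (-0.92, -1.62 to -0.26).

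Hlf, Meis1, Tal1 and Klf1, 4 of the 10 genes, were at least 1.5-fold lower in the MYC library's stem class and none was at least 1.5-fold higher, where 12.9% of the 9682 genes that reached 50 UMIs there were lower and 5.32% higher by that rule. The median log2 ratio of the 10 genes was -0.54, beside -0.14 over all genes compared. It was -1.12 when only cells under 5% mitochondrial UMIs were kept and -0.92 when the 10 genes and the partner and target lists were among the genes used for clustering, settings that drew the class differently (190 and 379 cells, 395 and 508 cells). After each cell was thinned to 1000 UMIs, 1 stem cell in each library had a Klf1 UMI, 0.437% of control and 0.452% of MYC cells, against 0.614% and 0.0851% of immature neutrophils, which should lack it. The unthinned shares were 18.3% and 10.4% against 4.94% and 2.17%, at median depths of 22192 and 17568 against 8370.5 and 10002.5 UMIs. Gata1 was in 3.06% and 1.81% of thinned stem cells against 0.434% and 0.255% of immature neutrophils. At this depth Lmo2 was in 30.6% and 24.9% of stem cells, Hlf in 10.5% and 10.9%, Mecom in 6.11% and 6.79%, Meis1 in 16.6% and 12.2% and Tal1 in 10.5% and 4.98%. The difference was -5.50 points for Tal1 (-10.8 to -0.27), and -1.35 points (-7.22 to 4.56) at 2000 UMIs a cell. For Lmo2, Hlf, Mecom and Meis1 the interval of the difference at 1000 UMIs included 0.

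**Figure D2:**
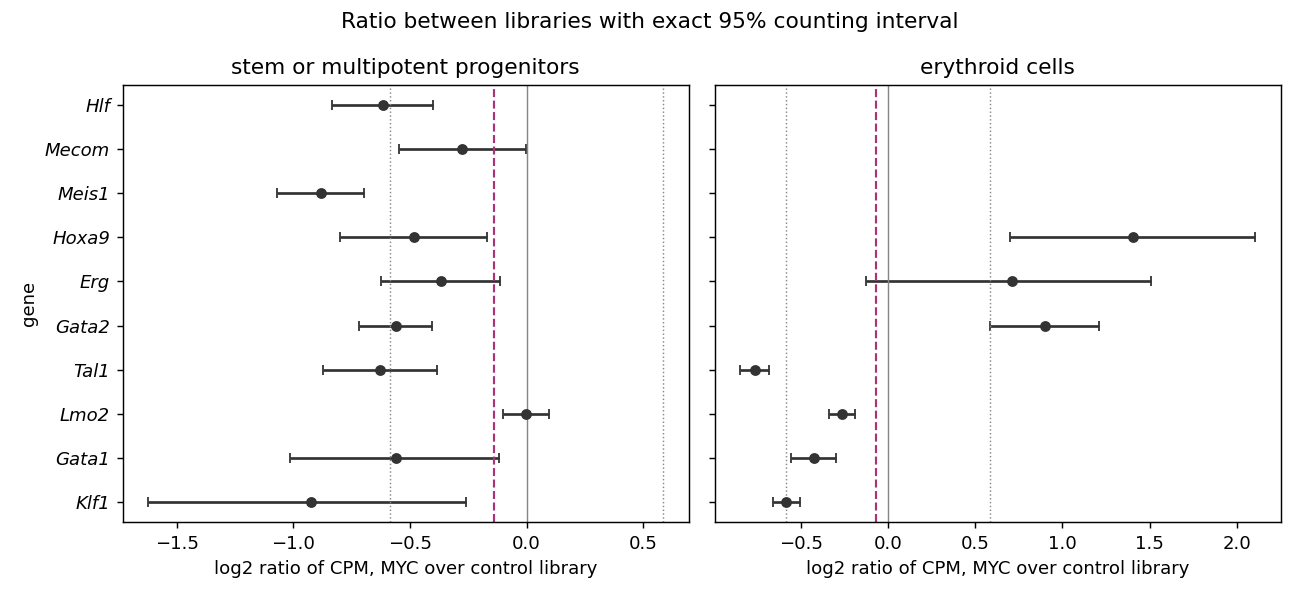
Log2 ratio of CPM, MYC over control library, for each gene in stem or multipotent progenitors (left) and erythroid cells (right), with exact 95% counting intervals; genes under 50 UMIs are left out. Dotted lines mark 1.5-fold either way and the dashed line the median of all genes compared (-0.14 and -0.07); Gata2, Hoxa9 and Erg lie to the left of 0 in the left panel and to the right of 0 in the right panel, Erg with an interval that includes 0 there.

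The stem class was not uniform, and its makeup moved with the library. The summed level of 6 granulocyte progenitor markers, among them the genes for primary granule proteins Mpo and Elane, was 6939 CPM in control cells and 9679 CPM in MYC cells, with none of the 6 at 0. The 10 stem markers summed to 999 and 1262 CPM, the 7 multipotent progenitor markers to 1635 and 1245 CPM, and the 10 megakaryocyte markers to 1944 and 1523 CPM, with Gp6 at 0 in the MYC library. Among the stem markers, Ifitm1 was at 216 and 593 CPM, and at 63.0 and 248 CPM in all other cells. Ctla2a (177 and 244 CPM), Procr and Ly6a were also higher in the MYC library. Adgrg1 (349 and 224 CPM), Angpt1 (182 and 128 CPM), Slamf1, Fgd5, Mllt3 and Esam were lower. The 10 erythroblast markers summed to 648 and 475 CPM. The lower sum came with a lower level of the globin gene Hba-a2, at 249 and 64.9 CPM, whereas Hbb-bs was at 179 and 225 CPM. Hba-a2 was also lower in the MYC library over all cells outside the erythroid class, at 774 and 238 CPM. The 8 erythroid progenitor markers summed to 370.2 and 431 CPM. Of these, Tfrc was higher, at 50.3 and 163 CPM, and Epor, Ermap and Rhag were lower. The 6 immature neutrophil markers summed to 2216 and 1029 CPM, the 7 mature neutrophil markers to 271 and 436 CPM and the 9 B progenitor markers to 124 and 41.4 CPM, with Vpreb2 at 0 in both libraries and Igll1 and Rag1 at 0 in the MYC library. The part of these markers in the values of the 10 genes was not tested. Cells of the class were therefore also read in 2 ranges of a score, the share of a cell's UMIs from the granulocyte progenitor markers, a division made after these values were seen. Under 0.1% lay 123 control cells (53.7%) and 98 MYC cells (44.1%), and 106 and 124 cells were at or above it. The ranges are not cell types, although only 4 control and 10 MYC cells lay within 0.02 percentage points of the limit.

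Within these ranges the genes differed in how they compared between libraries. Hlf was at 152 CPM in control cells under 0.1% and 111 CPM in MYC cells (log2 ratio -0.45, -0.71 to -0.19), but at 33.1 and 33.2 CPM in cells at or above 0.1% (0.0042, -0.42 to 0.43). Mecom was at 87.5 and 81.2 CPM in the lower range and 14.9 and 21.6 CPM in the upper (log2 ratios -0.11 and 0.53), with intervals that included 0 in both. Both genes were higher in the lower range than in the upper in either library. Meis1 and Tal1 were lower in the MYC library in both ranges, with all 4 intervals below 0. Meis1 had 230 and 156 CPM in the lower (-0.56) and 55.7 and 35.9 CPM in the upper (-0.63), and Tal1 109 and 84.4 CPM (-0.37) and 37.9 and 27.9 CPM (-0.44). Hoxa9 had overlapping levels in the 2 ranges, 42.4 and 41.5 CPM in the control and 32.2 and 28.9 CPM in the MYC library, and its log2 ratio was -0.40 in the lower and -0.52 in the upper range, the latter with an interval below 0. Erg had ratios of -0.46 and -0.16, and Lmo2 of 0.03 and 0.09. Gata2 was at 255 and 189 CPM in the lower range (-0.43, -0.63 to -0.23) and 87.4 and 77.1 CPM in the upper (-0.18, -0.45 to 0.09), and Gata1, the GATA factor of later red cell and platelet precursors, at 37.2 and 29.6 CPM against 7.28 and 7.31 CPM. The medians over the genes compared were -0.38 in the lower and -0.17 in the upper range, beside -0.12 and -0.13 over all genes.

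**Figure D3:**
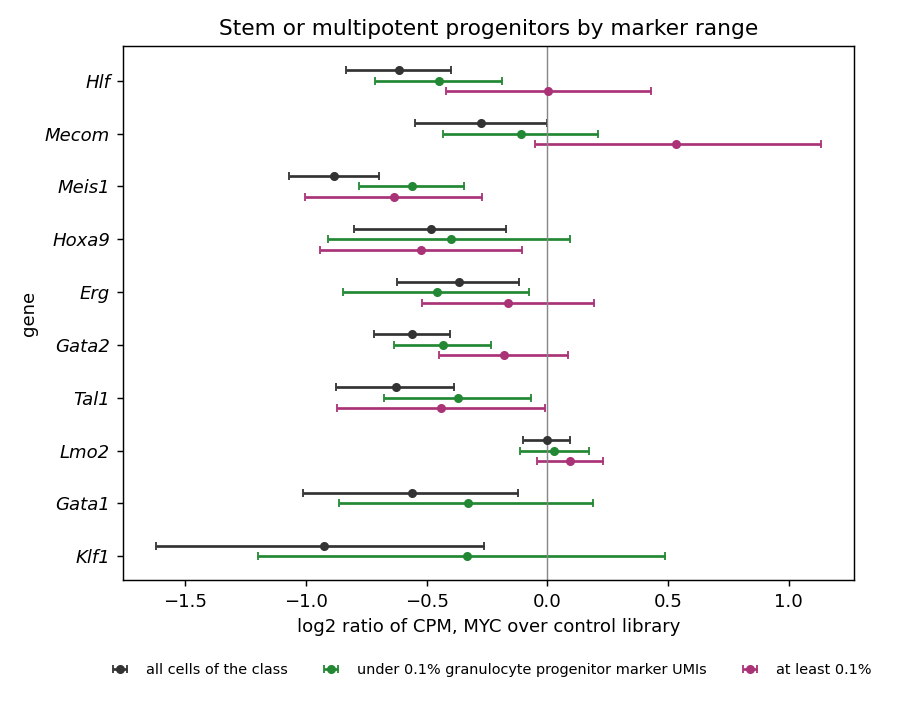
Log2 ratio of CPM, MYC over control library, in all stem or multipotent progenitors (black), in cells with under 0.1% of UMIs from granulocyte progenitor markers (green) and in those with at least 0.1% (purple), with exact 95% counting intervals; genes under 50 UMIs in a range are left out. Meis1 and Tal1 are below 0 with their whole interval in all 3 sets, whereas the intervals of Hlf, Mecom, Erg and Gata2 include 0 in the purple set.

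Detection in single cells of the stem class was counted without thinning. Of the 5 stem-side genes Hlf, Mecom, Meis1, Hoxa9 and Erg, all were detected in 34 of 229 control cells (14.8%) and 14 of 222 MYC cells (6.31%), and none in 9 (3.93%) and 23 cells (10.4%), at median depths of 22192 and 17568 UMIs. Hlf and Mecom were both detected in 67 control cells (29.3%, 23.5 to 35.6%) and 57 MYC cells (25.7%, 20.1 to 31.9%), intervals that overlap. The product of the shares of the single genes gives 21.7% and 17.4% for this pair, a value that does not allow for cells of unequal depth. Most stem cells with Gata1 also had Gata2, 53 of 60 in the control (88.3%) and 32 of 36 in the MYC library (88.9%), and Gata1 and Gata2 together were seen in 23.1% (17.8 to 29.2%) and 14.4% (10.1 to 19.7%) of cells. The product of their single shares gives 17.4% and 10.1%. After thinning to 1000 UMIs these pairs were seen in 5 and 3 cells for Hlf with Mecom and in 3 and 2 cells for Gata1 with Gata2, too few to compare.

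**Figure D4:**
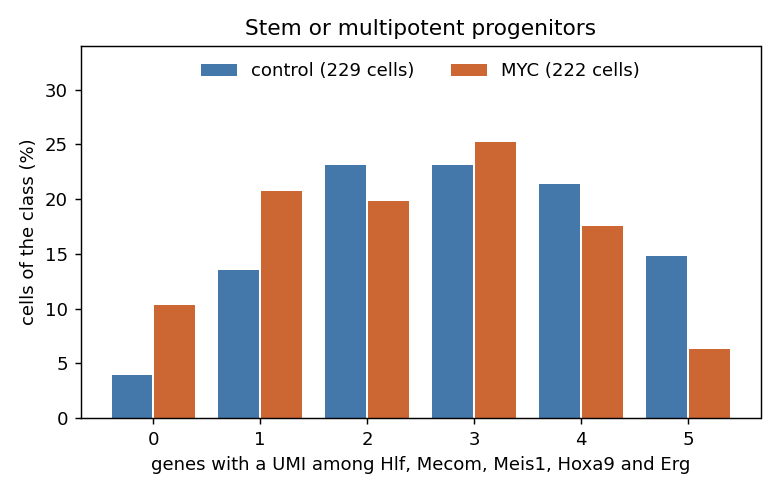
Share of stem or multipotent progenitors (in %, bars from 0) by how many of Hlf, Mecom, Meis1, Hoxa9 and Erg had at least 1 UMI in the cell, for 229 control and 222 MYC cells without thinning. Cells with all 5 genes made up 14.8% and 6.31%, and cells with none 3.93% and 10.4%, at unequal median depths.

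Related genes from lists chosen with knowledge of earlier results on these data were read in the same class. Of 37 partner and related factors, 34 were compared, of which 1 was at least 1.5-fold higher and 11 lower, with a median of -0.37, beside 5.32% higher, 12.9% lower and a median of -0.14 over all genes compared there. The lowest were Cbfa2t3 (log2 ratio -0.93), a corepressor of the TAL1 complex, Prdm16 (-0.91), Gfi1b (-0.90), a transcriptional repressor that acts within the red cell and platelet lineages, Mef2c (-0.85) and Foxo3 (-0.83). The largest ratios belonged to Hoxa10 (0.63, interval -0.20 to 1.48), Spi1 (0.42), the ETS factor PU.1 of myeloid cells, Hoxa7 (0.33), Gfi1 (0.29) and Nkx2-3 (0.11). Among 21 stem programme genes, which were not kept out of the clustering as a list, 17 were compared, 1 higher and 5 lower, with a median of -0.35, beside the same shares over all genes. The higher gene was Procr, the endothelial protein C receptor used to isolate stem cells (0.92, from 27 and 43 UMIs), and among the lower ones were Tek (-1.75, 44 and 11 UMIs), the cytokine receptor gene Flt3 (-1.09), Prdm16 and Adgrg1 (-0.64). Ly6a was at 24.0 and 28.5 CPM, Nkx2-3 at 8.51 and 9.21 CPM, Ctnnal1 at 8.14 and 7.67 CPM and Cd34 at 216 and 202 CPM, each with an interval of the ratio that included 0.

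In erythroid cells Tal1, Klf1, Gata1 and Lmo2 were lower in the MYC library, and Gata2 and Hoxa9 were higher, with counting intervals that did not include 0. Tal1 had 7475 UMIs in 1348 control cells and 1413 in 435 MYC cells, 347 against 205 CPM, a log2 ratio of -0.76 (-0.85 to -0.68). Klf1 was at 368 and 246 CPM (-0.58, -0.66 to -0.50), just short of 1.5-fold, and Gata1 at 115 and 85.9 CPM (-0.42, -0.56 to -0.30). Lmo2 was at 325 and 271 CPM (-0.26, -0.34 to -0.19). Gata2 was at 10.6 and 19.9 CPM from 229 and 137 UMIs, a log2 ratio of 0.90 (0.58 to 1.21), and the ratio was 0.30 when each cell was given equal weight. Hoxa9 was at 1.86 and 4.93 CPM from 40 and 34 UMIs (1.41, 0.70 to 2.10), and Erg at 1.86 and 3.04 CPM from 40 and 21 UMIs, with an interval that included 0. Hlf, Mecom and Meis1 each had under 50 UMIs over both libraries and were not compared: their levels were 0.790 and 0.290 CPM, 0.558 and 0.290 CPM, and 0.743 and 1.45 CPM, from at most 17 UMIs.

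By the 1.5-fold rule 3 of the 7 genes compared (Gata2, Hoxa9 and Erg) were higher, 1 (Tal1) was lower and 3 were neither, beside 14.9% higher and 18.2% lower of the 9821 genes compared in erythroid cells. The median log2 ratio of the 7 genes was -0.26, and that of all genes -0.07. A Gata2 UMI was found in 7.12% and 11.5% of erythroid cells against 1.40% and 0.584% of immature neutrophils. After thinning to 1000 UMIs the shares were 0.528% and 0.733%, from 7 and 3 cells, against 0.181% and 0.128%, with intervals that overlapped. In the early erythroid cluster 18 alone, the thinned shares were 2.36% (0.87 to 5.07%) and 1.68% (0.20 to 5.94%), from 6 and 2 cells, and the control share lay above that of its immature neutrophils. Markers of other lineages moved with the library too: in erythroid cells 6 immature neutrophil markers summed to 2731 and 3846 CPM and 8 basophil or mast cell markers, of a lineage rich in Gata2, to 26.5 and 63.0 CPM, with Cd200r3 at 0 in the control. The 10 stem markers summed to 115 and 157 CPM, with Procr and Fgd5 at 0 in both libraries, and the 8 monocyte markers to 50.5 and 120 CPM. Others were lower in the MYC library, among them granulocyte progenitor markers (149 and 110 CPM) and megakaryocyte markers (41.5 and 20.9 CPM). The part of all these markers in the Gata2 and Hoxa9 values was not tested.

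The erythroid class holds 3 clusters, and their proportions differed between libraries. Cluster 18, the earliest, with the metallothionein gene Mt2 and the carbonic anhydrase gene Car1 among its leading genes and a median haemoglobin share of 0.237% and 0.0308% of UMIs, held 19.0% of control and 27.4% of MYC erythroid cells. Cluster 8, at 13.1% and 18.6% haemoglobin, held 59.9% and 42.1%, and cluster 16 held 21.1% and 30.6%. In cluster 18 Gata2 was at 24.9 and 33.9 CPM (log2 ratio 0.44, 0.11 to 0.77) and Hoxa9 at 4.45 and 8.26 CPM (0.89, 0.16 to 1.62), while Tal1 was at 190 and 119 CPM (-0.67, -0.82 to -0.51), Klf1 at 289 and 199 CPM (-0.54, -0.66 to -0.42) and Gata1 at 107 and 80.5 CPM (-0.40, -0.60 to -0.21). Lmo2 was at 280 and 263 CPM, with an interval that included 0 (-0.20 to 0.02). In cluster 8 Tal1 was at 486 and 339 CPM (-0.52), Klf1 at 464 and 354 CPM (-0.39), Gata1 at 133 and 104 CPM (-0.36) and Lmo2 at 352 and 295 CPM (-0.25), all with intervals below 0. Gata2 had 14 and 10 UMIs there, 1.19 and 3.94 CPM, but 7 of the MYC UMIs came from 1 cell. Without the richest cell of each library, a check added after seeing the data, it was at 1.02 and 1.19 CPM in cluster 8. In cluster 18 it was then at 23.7 and 31.7 CPM (0.42, 0.08 to 0.76).

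In cluster 16, 3 of these genes were higher in the MYC library instead. Gata1 was at 18.8 and 45.9 CPM from 27 and 28 UMIs (log2 ratio 1.29, 0.47 to 2.11), Klf1 at 41.0 and 85.2 CPM (1.05, 0.49 to 1.62) and Tal1 at 128 and 170 CPM (0.41, 0.05 to 0.77). Lmo2 was lower, at 368 and 216 CPM (-0.77, -1.05 to -0.49). The cells of this cluster differed between libraries in stage and depth, with median haemoglobin shares of 41.0% and 19.6% and median UMIs of 5275.5 and 2127. Their part in these values was not tested.

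**Figure D5:**
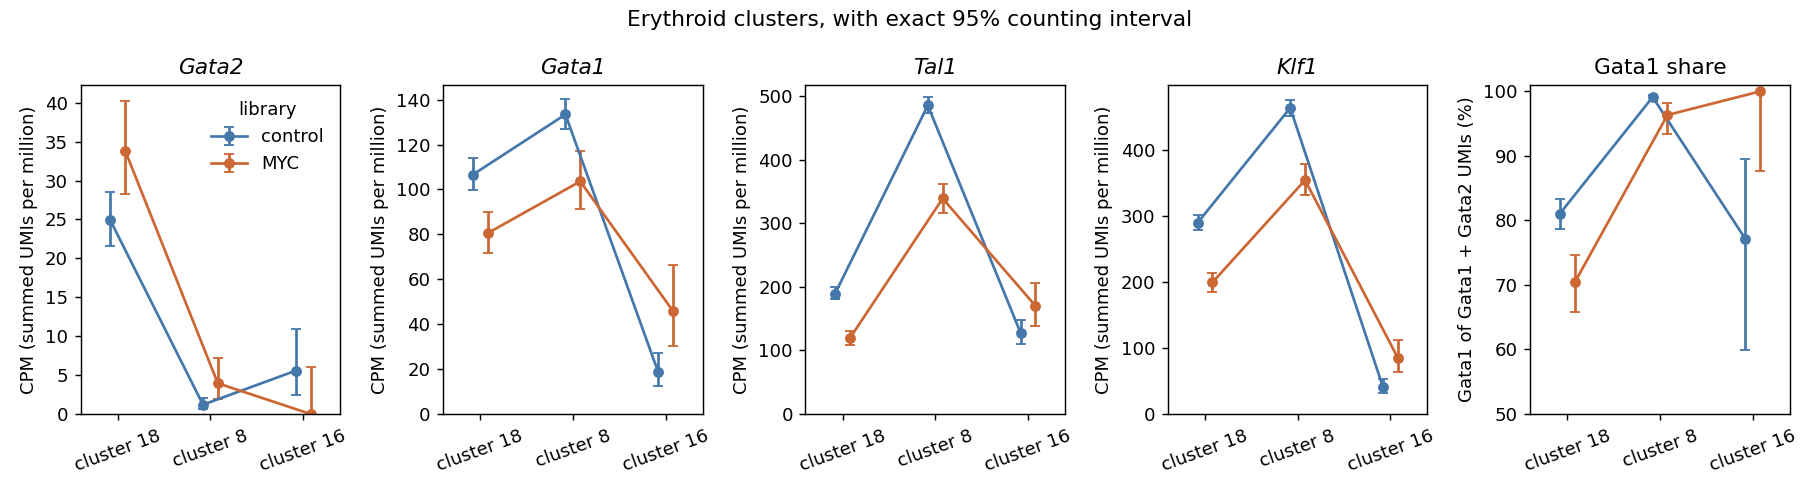
CPM of Gata2, Gata1, Tal1 and Klf1 in erythroid clusters 18, 8 and 16, and the share of Gata1 among Gata1 and Gata2 UMIs (%, axis from 50), in the control (blue) and MYC (orange) libraries, with exact 95% counting intervals; lines only join the clusters of a library. Gata1, Tal1 and Klf1 are lower in the MYC library in clusters 18 and 8 and higher in cluster 16.

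The balance of the 2 GATA genes, which does not depend on how libraries are scaled, was read as the share of Gata1 among their summed UMIs. In erythroid cells it was 91.6% (90.4 to 92.6%) of 2483 Gata1 and 229 Gata2 UMIs in the control and 81.2% (78.2 to 84.0%) of 593 and 137 UMIs in the MYC library, a difference of -10.3 percentage points (-13.5 to -7.34). As a mean over cells, which gives shallow cells the same weight as deep ones, the difference was -3.73 points. In the stem class the share was 11.5% in each library, with a difference of -0.0083 points (-3.24 to 3.40). Within cluster 18 it was 81.1% and 70.4% (difference -10.7 points, -15.8 to -5.73) and within cluster 8 99.1% and 96.3% (-2.78 points, -5.78 to -0.80). Without the cell richest in Gata2 in each library the differences were -9.86 points (-15.0 to -4.96) in cluster 18 and -0.38 points (-2.58 to 0.69) in cluster 8, where the interval then included 0. In cluster 16 it was 77.1% of 27 and 8 UMIs in the control, against 28 Gata1 UMIs and 0 Gata2 UMIs in the MYC library, where 0 allows up to 4.91 CPM, a difference in the opposite direction of 22.9 points (5.34 to 40.1). The share was also higher in the MYC library in basophils or mast cells, at 1.75% and 3.35% (difference 1.60 points, 0.60 to 2.71), and in the few megakaryocytes, at 36.5% and 74.1%.

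The Gata1 share was also read in ranges of the haemoglobin share. Among erythroid cells under 1% haemoglobin, 219 control and 92 MYC cells with median depths of 34677 and 36940.5 UMIs, the Gata1 share was 78.6% and 65.7% (difference -12.9 points, -18.6 to -7.31). Gata2 itself was at 27.8 and 40.5 CPM there (log2 ratio 0.54, 0.21 to 0.87), Gata1 at 102 and 77.7 CPM (-0.40), Tal1 at 184 and 106 CPM (-0.80) and Klf1 at 285 and 186 CPM (-0.61). From 1 to 10% the share was 99.2% and 93.2%, in cells whose median depth was 18513 UMIs in control cells and 3425 in MYC cells. In that range 7 of 10 MYC Gata2 UMIs came from 1 cell, and without the richest cells the share was 99.4% and 97.8%, with an interval of the difference that included 0. From 10 to 50% it was 98.0% and 98.6%, with an interval of the difference that included 0 (-2.07 to 2.39 points). Tal1 and Klf1 were lower in the MYC library in that range too, Tal1 at 547 and 318 CPM (-0.78) and Klf1 at 415 and 304 CPM (-0.45), whereas Gata1 at 106 and 97.1 CPM had an interval that included 0. At 50% and over, in 40 control and 20 MYC cells, Klf1 had 6 and 18 UMIs (33.3 and 130 CPM) and Tal1 18 and 25 (99.96 and 180 CPM). These are ranges and not cell types, with 29 control and 5 MYC cells within 20% of the 1% limit, 112 and 34 within 20% of the 10% limit, and 164 and 45 within 20% of the 50% limit, more than the cells above it.

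Of 30 genes of the red cell programme, 29 were features and all 29 were compared in erythroid cells, where 12 were at least 1.5-fold lower in the MYC library and 1 higher, with a median of -0.49, beside 18.2% lower, 14.9% higher and a median of -0.07 over all genes compared there. Among the lowest were the membrane skeleton gene Sptb (503 and 206 CPM, log2 ratio -1.29), the mitochondrial iron importer gene Slc25a37 (961 and 458 CPM, -1.07), Epb42 (237 and 117 CPM, -1.02), another membrane skeleton gene, and the survival gene Bcl2l1 (70.7 and 36.5 CPM, -0.95). The higher one was Blvrb, a biliverdin reductase gene, at 952 and 1501 CPM (0.66). No globin gene reached 1.5-fold: Hbb-bs was at 42906 and 53519 CPM (0.32), Hba-a1 at 19750 and 21996 CPM (0.16), Hbb-bt at 15891 and 16089 CPM (0.02) and Hba-a2 at 11808 and 9820 CPM (-0.27). Hba-a2 and Hbb-bt were added after their values were seen, and reads of these near-identical gene pairs can be split between them. Icam4, at 110 and 128 CPM, and the heme enzyme gene Urod, at 282 and 310 CPM, were likewise below the 1.5-fold limit. Of the partner list 29 genes were compared in erythroid cells, 4 higher and 4 lower, shares no larger than those over all genes (14.9% and 18.2%), with a median of -0.34. Ikzf2 (1.28), Etv6 (0.71), Spi1 (0.65) and Cbfb (0.59) were higher, with Hoxb4 next at 0.55 from 34 and 16 UMIs, and Runx1t1 (-1.60), Foxo3 (-0.87), Pbx3 (-0.79) and Tfdp2 (-0.73), a dimer partner of E2F factors, were lower, with E2f2 at 326 and 220 CPM (-0.57).

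In basophils or mast cells, where Gata2 was highest, 2 of 5 genes compared were at least 1.5-fold lower in the MYC library and none higher, beside 21.2% lower and 9.08% higher of 6584 genes. Gata2 had 3030 UMIs in 186 control cells and 1473 in 147 MYC cells, 1778 and 1002 CPM (log2 ratio -0.83, -0.92 to -0.74), and Tal1 was at 61.0 and 33.3 CPM (-0.87, -1.39 to -0.37), or -0.27 with equal weight for each cell. Gata1 was at 31.7 and 34.7 CPM, Lmo2 at 93.9 and 98.0 CPM and Meis1 at 20.5 and 23.8 CPM, all with intervals that included 0. Nearly every cell had a Gata2 UMI, 100% and 98.6%, and after thinning to 1000 UMIs 84.2% (78.2 to 89.2%) and 64.6% (56.3 to 72.3%) did.

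Megakaryocytes, the platelet precursors, were few, with 59 control and 61 MYC cells at median depths of 2416 and 1382 UMIs, so levels are given without a ratio. Gata2 was at 310 CPM (115 UMIs) and 23.6 CPM (7 UMIs), Tal1 at 334 and 111 CPM and Gata1 at 178 and 67.5 CPM, whereas Lmo2 was at 140 and 145 CPM. Markers of other lineages differed in this class too. The 10 erythroblast markers summed to 2103 and 15345 CPM, the 6 immature neutrophil markers to 7883 and 13687 CPM, and the 6 endothelial markers to 468 and 105 CPM, with Cdh5 and Ramp2 at 0 in both libraries and Emcn in the control. The 10 megakaryocyte markers were close only as a sum, at 19879 and 20404 CPM. Pf4 (10475.5 and 13795.4 CPM), Gp9 (328 and 810 CPM) and Gp1bb were higher in the MYC library. Itga2b, Ppbp, Vwf, Gp1ba, Gp6 (517 and 111 CPM), Itgb3 (1804 and 824 CPM) and Treml1 were lower. The part of all these markers in the values of Gata2, Tal1 and Gata1 was not tested. The control values leaned on a single cell of 38888 UMIs, which held 52 of the Gata2, 21 of the Tal1 and 21 of the Gata1 UMIs. Without the cell richest in each gene the levels were 189 and 17.4 CPM for Gata2, 310 and 92.5 CPM for Tal1 and 135 and 59.3 CPM for Gata1. Meis1 was at 40.2 and 25.9 CPM without its richest cells, from 13 and 7 UMIs. Hoxa9 had 0 UMIs in both libraries, which allows up to 8.08 and 10.1 CPM.

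In the neutrophil line Erg and Hlf were lower in the MYC library at the immature stage. In granulocyte progenitors 3 of 5 genes compared passed 1.5-fold, Hlf (11.8 and 7.12 CPM, log2 ratio -0.73) and Tal1 (8.83 and 5.43 CPM, -0.70) downward and Hoxa9 (6.25 and 9.77 CPM, 0.64, 0.15 to 1.14) upward (-0.029 with each library clustered on its own), beside 28.2% lower and 4.27% higher of 9585 genes. Erg was at 31.4 and 21.1 CPM there (-0.57) and Lmo2 at 157 and 133 CPM (-0.25). In immature neutrophils Erg had 1731 and 1125 UMIs, 62.6 and 43.1 CPM (-0.54, -0.65 to -0.43), Hlf was at 10.7 and 7.09 CPM (-0.60, -0.87 to -0.33) and Lmo2 at 74.2 and 54.4 CPM (-0.45). Together with Hlf, the low levels of Gata2, Tal1, Gata1 and Klf1 made 5 of 7 genes lower and none higher, beside 18.8% lower and 9.29% higher of 10289 genes. In mature neutrophils Lmo2 was at 72.7 and 36.7 CPM (-0.99, -1.17 to -0.80), the clearest lower level outside the low erythroid genes, of which Tal1, Gata1 and Klf1 were also lower, making 4 of 5, beside 16.5% lower and 12.4% higher of 8445 genes.

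Monocytes differed from the stem class in Hoxa9. The gene had 38 UMIs in 1229 control cells and 156 in 1606 MYC cells, 2.21 and 6.18 CPM, a log2 ratio of 1.49 (0.97 to 2.04). Meis1 was level there, at 7.32 and 7.37 CPM (0.0098, -0.32 to 0.35), as was Tal1 at 6.27 and 5.66 CPM. Of 8 genes compared in monocytes Hoxa9 was higher and Gata2, Gata1 and Klf1 lower by the 1.5-fold rule, beside 8.46% higher and 16.2% lower of 11008 genes. Gata2, Gata1 and Klf1 were at only 2.09, 1.74 and 4.30 CPM in control monocytes, and whether free RNA gave these levels was not tested. As a result of the Hoxa9 levels and of cell numbers, monocytes held 8.44% of the control's Hoxa9 UMIs and 31.5% of the MYC library's, and the stem class 50.4% and 27.7%. After thinning to 1000 UMIs, 0.163% and 0.374% of monocytes had a Hoxa9 UMI, against 0.0361% and 0.0426% of immature neutrophils, shares that rest on 2 and 6 monocytes. The ratio was 0.65 with at least 1000 UMIs and 500 genes a cell, and 0.11 (-0.50 to 0.73), with an interval that included 0, when each library was clustered on its own.

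Likeness between genes was described by Pearson's r of log2(CPM + 1) over 29 sums of a class in a library, with no test, since the sums share libraries and depth. Among the 10 genes the closest were Gata1 with Tal1 (0.89), Hlf with Mecom (0.77), Gata1 with Gata2 (0.76), Gata1 with Klf1 (0.74) and Gata2 with Tal1 (0.73), and Klf1 had values between -0.05 and 0.07 with Hlf, Mecom, Meis1 and Hoxa9. Over all genes with at least 100 UMIs, Klf1 was closest to Car2 (0.96), Hemgn (0.96) and Ermap (0.95), genes of red cell precursors. Gata1 was closest to Pheta2 (0.91), Trim58 (0.91) and C530008M17Rik (0.91), and Tal1 to Trim58 (0.92), Gfi1b (0.92) and Pdzk1ip1 (0.92). Gata2 was closest to Slc18a2 (0.94), Ccl17 (0.93) and Ptger3 (0.92), and Mecom to Mdfi (0.89), Vldlr (0.88) and Bex1 (0.87). Meis1 was closest to Dapp1 (0.87), Mdga1 (0.86) and Ptov1 (0.85), and Hoxa9 to Pdgfrb (0.87), its cluster neighbour Hoxa7 (0.87) and AI661453 (0.85). The values were lower for Erg, with Gm1604a (0.82), Msrb2 (0.82) and Sftpb (0.81), for Hlf, with Ampd2 (0.80), Myo15b (0.78) and Tas1r1 (0.78), and for Lmo2, with Osbpl1a (0.76), Inafm1 (0.76) and Tceal8 (0.74).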

How the data were processed

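Single-cell libraries of mouse bone marrow were read as the UMI counts per gene and barcode that the authors deposited, with Cell Ranger 6.0.0 named in the file headers; Seurat and GRCm38 (mm10) are named in the submitters' processing notes. The control and the MYC genotype had 17073 and 14496 barcodes with 131884603 and 110012176 UMIs. Barcodes needed 500 UMIs, 200 genes and a mitochondrial share under 10%. Scrublet in scanpy 1.11.5, with an expected rate of 0.8% per 1000 barcodes, removed 701 (4.53%) and 251 (1.95%) doublets, fewer than that rate implies. Both libraries were clustered together (2000 variable genes, 30 components, 15 neighbours, leidenalg 0.10.2, resolution 1), leaving out the 10 genes, the partner and target lists and mitochondrial, ribosomal and receptor genes. Clusters were named from fixed markers. Clusters with a median under 0.2 of their library's median UMIs stayed unnamed, a rule added after the data were seen. The 6 clusters without a name enter no comparison between classes, and levels in 3 of them are given as other observations.

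UMIs were summed by class and library. CPM has an exact Poisson interval, a share of cells a Clopper-Pearson interval, a ratio an exact conditional binomial interval, and a difference of shares a Newcombe interval, each at 95%. Nothing says how many animals each library pools, so no interval covers variation between mice. Genes with at least 50 UMIs in a class were compared between classes of at least 100 cells per library, and a call meant at least 1.5-fold. Ratios within clusters and ranges of a class are also given below these limits, as descriptions without a call. List medians used a pseudocount of 1 CPM. The interval was tested on simulated data. Named genes were all 10 members, the 3 genes most like each, and the 5 largest and 5 smallest ratios of each list, some of which are not reported here. The 10 genes and all lists were chosen with earlier results of these data known. Thinned shares used 1000 random UMIs per cell, leaving out 22 control and 26 MYC erythroid cells and 1 MYC stem cell as too shallow. Promoters came from RefSeq (GRCm38.p6).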

Additional observations from a re-analysis of the deposited data

Results flagged for a closer look

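Gata2 and Hoxa9 were lower in the MYC library in stem or multipotent progenitors and higher in its erythroid cells, with counting intervals that excluded 0 on opposite sides. For Gata2 the log2 ratios were -0.56 and 0.90, a difference of 1.46 between the classes. Over the settings tried, the Gata2 ratio lay between -1.50 and -0.18 in the stem class. In erythroid cells it lay between 0.29 and 0.97, so it did not pass 1.5-fold in every setting. For Hoxa9 the log2 ratios were -0.48 and 1.41, a difference of 1.89, of which the erythroid value rests on 40 control and 34 MYC UMIs. The difference between the classes was not tested, because each genotype has 1 library. In erythroid cells the summed basophil or mast cell markers were at 26.5 and 63.0 CPM in control and MYC cells, and the share of the early cluster 18 was 19.0% and 27.4%. Within cluster 18 alone the log2 ratios were 0.44 for Gata2 and 0.89 for Hoxa9.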

How the results depend on the processing

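No paired analysis was possible because each genotype has 1 library. In stem or multipotent progenitors the median log2 ratio of -0.54 became -1.12 with cells under 5% mitochondrial UMIs, where the class held 190 control and 379 MYC cells, -0.92 with the 10 genes and lists among the variable genes (395 and 508 cells), and -0.17 in cells with at least 0.1% granulocyte progenitor marker UMIs, a setting chosen after seeing the data; the other 12 settings stayed within the spread of the 10 genes. No such class could be named at a Leiden resolution of 0.5, nor in the control when each library was clustered on its own. The erythroid median stayed between -0.42 and -0.19. The erythroid Gata1 share difference of -10.3 points became -3.73 points with equal weight per cell, and lay between -11.4 and -7.80 points otherwise. Erythroid Gata2 was at 0.29 with at least 1000 UMIs and 500 genes, 0.30 with equal weight per cell and 0.41 under 5% mitochondrial UMIs. The sign of the ratio changed, with an interval that included 0 unless stated, for Hlf (0.0042) and Mecom (0.53) in stem cells with at least 0.1% granulocyte progenitor marker UMIs, for Hoxa9 in granulocyte progenitors with each library clustered on its own (-0.029), for Lmo2 in granulocyte progenitors (0.074) and monocytes (0.0022) with median-of-ratios scaling, which moves the median of all genes close to 0, and for Erg in mature neutrophils with doublets kept (0.062) or at least 1000 UMIs and 500 genes (0.69, interval above 0); the cause was not tested. Lmo2 in the stem class (-0.0020) had no direction to lose, and lay between -0.21 and 0.14. Thinning to 2000 in place of 1000 UMIs moved the erythroid Tal1 difference from -6.91 to -15.6 points, and the other 19 thinned differences stayed within their intervals. Counts under 50 UMIs limit Hlf, Mecom and Meis1 in erythroid cells and most of the 10 genes in megakaryocytes.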

Other observations

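Unnamed clusters also held the red cell factors. The largest, cluster 0, with 2487 control and 2635 MYC barcodes at median depths of 746 and 803 UMIs, had Klf1 at 115 and 43.8 CPM, Tal1 at 116 and 69.1 CPM and Gata1 at 49.0 and 24.9 CPM. Cluster 24, with 73 and 127 cells at median depths of 1378 and 1731 UMIs, had Tal1 at 208 and 274 CPM, Klf1 at 120 and 94.8 CPM and Gata1 at 37.1 and 63.9 CPM. Cluster 3, with 1906 and 179 cells, had Klf1 at 15.2 and 4.86 CPM and Tal1 at 17.2 and 6.48 CPM. In plasma cells Lmo2 was at 20.3 CPM in control cells and 38.0 CPM in MYC cells.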
